A study of Macaca mulatta with 24 samples.

Results

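Genes of the clathrin coat and its adaptors were examined across the layers of the lateral geniculate nucleus (LGN), the thalamic relay between retina and visual cortex, of monocularly deprived rhesus macaques. The list names 9 genes: the epsins EPN1 and EPN2, AP1G1, AP2A1, AP2M1, CLTA, CLTB, CLTC and DNM1. The platform annotation assigned 18 probe sets, of 52766 that are not controls, to 8 of these genes, and CLTC, the clathrin heavy chain, had no probe set assigned to it alone. A signal of 100 or more on at least 1 of 24 arrays was reached by 17 of the 18, among 37623 probe sets that entered the tests. The list was chosen on measured values: EPN1 was chosen for its signal in deprived and nondeprived parvocellular layers, and AP1G1 is treated as chosen for its signal in deprived and nondeprived magnocellular layers. These differences are therefore given below as descriptions, with no test.

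Both animals had the left eye closed to pattern vision from birth, one with an opaque contact lens for 2 months and the other by tarsorrhaphy, the suturing of the lids, for 4 months. Each of 6 layers was cut by laser capture microdissection from both LGNs of each animal and hybridized to 1 Rhesus Macaque Genome Array. A layer that receives the closed eye was called deprived (layers 2, 3 and 5 on the side of that eye, layers 1, 4 and 6 on the other side), which gave 8 deprived and 8 nondeprived parvocellular arrays (layers 3 to 6) and 4 deprived and 4 nondeprived magnocellular arrays (layers 1 and 2). Every nondeprived layer came from the same deprived animals, no array of a normally reared animal is used here, and the duration, the animal and the way of closing the eye cannot be told apart. Each array holds RNA of pooled sections, so fewer neurons in a layer and less RNA per neuron cannot be told apart, and p-values measure the spread between layers of 2 animals.

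Clathrin forms a cage of heavy and light chains around a budding vesicle. AP-2 links the cage to cargo and to lipids at the plasma membrane, AP-1 does so at the trans-Golgi network and endosomes, epsins bend the membrane and bind ubiquitinated cargo, and dynamin cuts the neck of the vesicle. At synapses this machinery takes part in the recycling of synaptic vesicle membrane, and epsins are also known for their part in Notch signalling.

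The arrays were scaled by the authors to a common trimmed mean, 500.04 on all 24. The share of probe sets at a signal of 100 or more was 40.6% to 57.1%. On the ipsilateral side, deprived layer 2 of the 2-month animal stood apart, with a GAPDH 3′ to 5′ signal ratio of 50.8 against 1.97 to 14.3 on the other arrays and a mean correlation of 0.811 with the others, which had 0.885 to 0.919. Some results that use this array are also given without it, and this is stated where it is done. All other magnocellular values and differences between layer classes include it. The 5 of 10 listed neuronal markers that the annotation names (SYT1, NEFH, STMN2, ENO2 and GAP43) had a signal of 100 or more on 24 of 24 arrays.

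EPN1 had 4 probe sets, and the one with the highest mean signal, MmugDNA.34766.1.S1_at, gave the widest separation of layers. In nondeprived parvocellular layers its signal was 13652, 13996, 11485 and 10438 in layers 3, 4, 5 and 6 at 2 months and 11083, 8759, 6181 and 6560 in the same layers at 4 months. In deprived parvocellular layers it was 8055, 6382, 7939 and 4482 in layers 3, 4, 5 and 6 at 2 months and 4436, 4634, 1848 and 2150 at 4 months. Within each of the 4 LGNs both deprived parvocellular layers lay below both nondeprived ones, a pattern held by 0.566% of all probe sets tested.

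The group means were 4991 ± 2350 in deprived and 10269 ± 2934 in nondeprived parvocellular layers (SD, n = 8 each), and the log2 difference was −1.15 (SE 0.19). Between the paired layers of an LGN (3 with 4, 5 with 6) the deprived layer was lower in 8 of 8 pairs, by log2 ratios from −1.83 to −0.39. By LGN the difference was −1.23 and −1.39 on the contralateral side at 2 and 4 months and −0.60 and −1.40 on the ipsilateral side. These values describe the contrast on which EPN1 was chosen.

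A second EPN1 probe set, MmugDNA.22086.1.S1_at, was dimmer and had the same direction. Its signal was 545, 132, 169 and 183 in deprived layers 3, 4, 5 and 6 at 2 months against 588, 864, 641 and 464 in the nondeprived layers 3, 4, 5 and 6. At 4 months it was 286, 204, 97 and 160 in the deprived layers 3, 4, 5 and 6 against 682, 593, 253 and 250.0 in the nondeprived ones. The deprived layer was lower in 8 of 8 pairs, with a log2 difference of −1.36 (SE 0.29), although deprived layer 3 at 2 months lay above 3 of the 8 nondeprived values. Over 24 arrays, after subtraction of each LGN's mean, the log2 signals of these 2 probe sets had a Pearson r of 0.77, as a description of arrays that share animals and amplification.

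The remaining EPN1 probe sets did not share this pattern. MmugDNA.7147.1.S1_at ranged from 697 to 3184 and had a log2 difference of −0.10 (SE 0.20) in parvocellular layers, with the deprived layer lower in 5 of 8 pairs. MmugDNA.42306.1.S1_at was close to the minimum of 100, from 22 to 237, with a difference of 0.35 (SE 0.47). The r of the first of these with the leading probe set was −0.40, and no file used here says which part of the transcript each probe set reads.

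**Figure D1:**
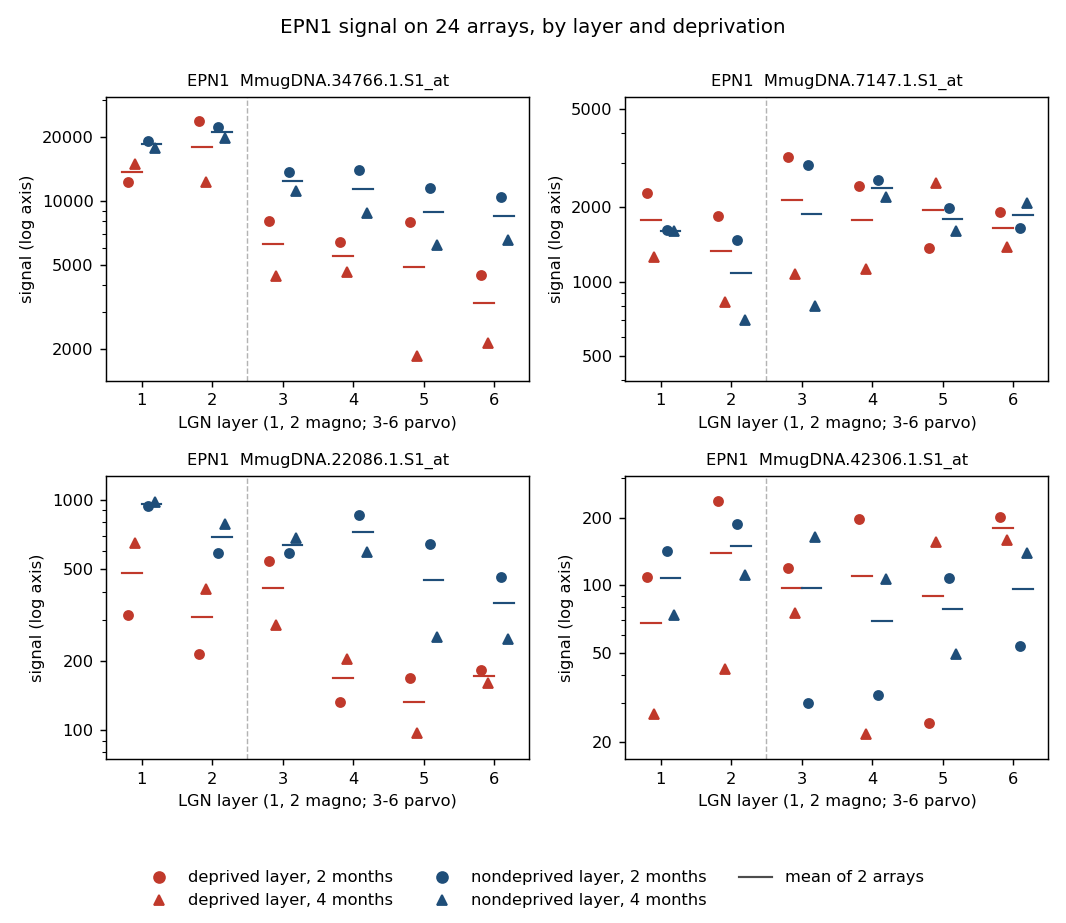
Signal of the 4 EPN1 probe sets (vertical, log axis, arbitrary units) in each LGN layer (horizontal; layers 1 and 2 magnocellular, 3 to 6 parvocellular), with 1 point per array, red for deprived and blue for nondeprived layers, circles for 2 and triangles for 4 months, and a bar at the mean of 2 arrays. In MmugDNA.34766.1.S1_at the deprived parvocellular means lie below the nondeprived ones in layers 3 to 6 and all magnocellular arrays lie at 12241 or more; MmugDNA.7147.1.S1_at and MmugDNA.42306.1.S1_at show no such order.

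The contrast of deprived with nondeprived parvocellular layers called 365 of 37623 probe sets at an adjusted p under 0.05 (limma, Benjamini-Hochberg), which is 0.97%. Both EPN1 probe sets described above were among them, the only 2 of 17 member probe sets, and the count is not a result because EPN1 was chosen on this contrast. With each array left out in turn the log2 difference of MmugDNA.34766.1.S1_at was −1.25 to −1.02, as a description. The call of MmugDNA.22086.1.S1_at was lost when 1 of 9 arrays was left out, each of which left 1 member. On the ipsilateral side these were nondeprived layer 4 and deprived layer 5, at 2 and at 4 months. On the contralateral side they were nondeprived layers 3 and 5 and deprived layer 4 at 2 months, and nondeprived layer 3 and deprived layer 6 at 4 months. Just inside and outside the threshold stood MmugDNA.22086.1.S1_at and the AP1G1 probe set MmugDNA.22403.1.S1_at, with log2 differences of −1.36 and −0.44.

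In magnocellular layers, whose arrays the parvocellular contrast does not use, the leading EPN1 probe set was high in both groups. Whether these layers also entered the choice of EPN1 is not known, so its p-values here may not be free of that choice. Its signal was 12315 and 14912 in deprived layer 1 (2 and 4 months, contralateral) and 23751 and 12241 in deprived layer 2 (ipsilateral). In nondeprived layers it was 19227 and 17796 in layer 1 and 22237 and 19874 in layer 2. Deprived arrays were lower in 3 of 4 LGNs, and the highest of all 24 values came from the deprived layer 2 that stood apart.

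The log2 difference was −0.38 (SE 0.26, adjusted p = 0.84, limma), and −0.60 (SE 0.24, adjusted p = 0.822) without the array that stood apart. Each LGN holds 1 deprived and 1 nondeprived magnocellular layer, so leaving out an array here also takes its partner out of the contrast. MmugDNA.22086.1.S1_at had signals of 316, 214, 651 and 409 in deprived and 941, 589, 980 and 787 in nondeprived magnocellular layers, in the order layer 1 and 2 at 2 months, layer 1 and 2 at 4 months. It was lower in the deprived layer of 4 of 4 LGNs, by −1.14 (SE 0.35, adjusted p = 0.836, limma), and the groups overlapped in 1 array on each side. The LGN of the array that stood apart had the largest difference, −2.14, and without that array the difference was −0.81. No probe set of 37623 passed the threshold in this contrast (0%), while 2138 had an unadjusted p under 0.05, among them EPN1 MmugDNA.22086.1.S1_at and AP2M1.

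The difference of EPN1's deprivation effect between layer classes (parvocellular minus magnocellular) was −0.78 (SE 0.35) for MmugDNA.34766.1.S1_at, and −0.71 (SE 0.37) without the array that stood apart. It is a description, since one of its terms is the contrast on which EPN1 was chosen. Between 4 and 2 months the effect in parvocellular layers differed by −0.49 (SE 0.38, adjusted p = 0.973), from −0.74 without ipsilateral layer 3 to −0.23 without ipsilateral layer 5, both deprived at 4 months. No probe set passed in that comparison (0%, limma), with 1465 at an unadjusted p under 0.05.

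Between layer classes EPN1 had the largest log2 difference of the 17 member probe sets. In MmugDNA.34766.1.S1_at the means were 19784 ± 1852 in nondeprived magnocellular (SD, n = 4) against 10269 ± 2934 in nondeprived parvocellular layers (SD, n = 8), and 15805 ± 5441 against 4991 ± 2350 in deprived layers. The nondeprived groups did not overlap (13996 at most against 17796 at least), which 0.702% of all probe sets shared in this direction, and the deprived groups did not overlap either (8055 at most against 12241 at least). Both separations together occurred in 33 probe sets, 0.0877% of those tested. The deprived separation rests on the low deprived parvocellular signals on which EPN1 was chosen. The share for both together is therefore a description and no measure of how rare the pattern is.

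The log2 difference, parvocellular minus magnocellular, was −1.39 (SE 0.17, limma over 24 arrays). It was −1.00 (SE 0.17) in nondeprived arrays alone, −1.07 in the 2-month animal and −1.71 in the 4-month animal. Without the array that stood apart it was −1.36, and in deprived arrays alone −1.78 (SE 0.26). All of these values are descriptions with no p, because deprived and nondeprived parvocellular signals both entered the choice of EPN1. This holds for the fit of nondeprived arrays alone too. The threshold was passed by 1355 probe sets in this comparison, 3.6% of those tested. Of 17 member probe sets 2 passed, this one and EPN2 MmuSTS.3611.1.S1_at, and for EPN1 the call is a description too.

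MmugDNA.22086.1.S1_at was also lower in parvocellular layers, by −0.81 (SE 0.27, adjusted p = 0.0988, limma), and did not pass. Its fits hold the deprived parvocellular signals too, so their p-values are not free of the choice of EPN1. The difference was −1.01 without the array that stood apart and −0.91 without the ipsilateral deprived layer 3 at 2 months. Leaving out each array in turn gave −1.01 to −0.64 with an adjusted p up to 0.248. In the 2-month animal alone the difference was −0.26 (adjusted p = 0.743) and in the 4-month animal −1.35 (adjusted p = 0.0681). MmugDNA.7147.1.S1_at had the opposite sign, 0.41 (SE 0.18, adjusted p = 0.259).

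By single layer, deprived and nondeprived arrays together, the leading EPN1 probe set averaged 19526 ± 5112 in layer 2, 16063 ± 3076 in layer 1, 9306 ± 3972 in layer 3, 8443 ± 4070 in layer 4, 6863 ± 4006 in layer 5 and 5907 ± 3517 in layer 6 (SD, n = 4 each). In this order neighbouring layers of 1 class differed by less than the larger of their SDs, and the step from layer 1 to layer 3 was larger than either SD. Outer parvocellular layers (5 and 6) were lower than inner ones (3 and 4) by −0.60 (SE 0.14, adjusted p = 0.521, limma), and MmugDNA.22086.1.S1_at by −0.82 (SE 0.23, adjusted p = 0.521). No probe set passed in that comparison (0%, 3377 at an unadjusted p under 0.05), nor between layers 1 and 2 (0%, 1142), where the leading EPN1 probe set differed by −0.26 (SE 0.29, adjusted p = 1).

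EPN2, the other epsin on the list, ran the other way between layer classes. MmuSTS.3611.1.S1_at had signals of 673 and 777 in nondeprived layers 1 and 2 at 2 months and 1046 and 513 at 4 months, and of 741 and 565 in the deprived ones at 2 months and 752 and 683 at 4 months. In parvocellular layers it ranged from 880 to 1379 where nondeprived (median 1073) and from 805 to 1454 where deprived (median 1103). Deprived groups of the 2 classes did not overlap, as in 0.412% of all probe sets in this direction, and nondeprived groups overlapped through 1 magnocellular array.

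The log2 difference was 0.64 higher in parvocellular layers (SE 0.12, adjusted p = 0.00295, limma), and 0.56 (adjusted p = 0.00825) without the array that stood apart. It did not pass in the 4-month animal alone (0.43, adjusted p = 0.37) or in nondeprived (0.59, adjusted p = 0.117) or deprived arrays alone (0.68, adjusted p = 0.226). Its log2 difference between deprived and nondeprived layers was −0.0045 (SE 0.11) in parvocellular and −0.10 (SE 0.30, adjusted p = 0.965, limma) in magnocellular layers. The second EPN2 probe set, MmugDNA.11051.1.S1_at, had a class difference of 0.23 (SE 0.16, adjusted p = 0.506), and its r with the first was 0.16 over 24 arrays.

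**Figure D2:**
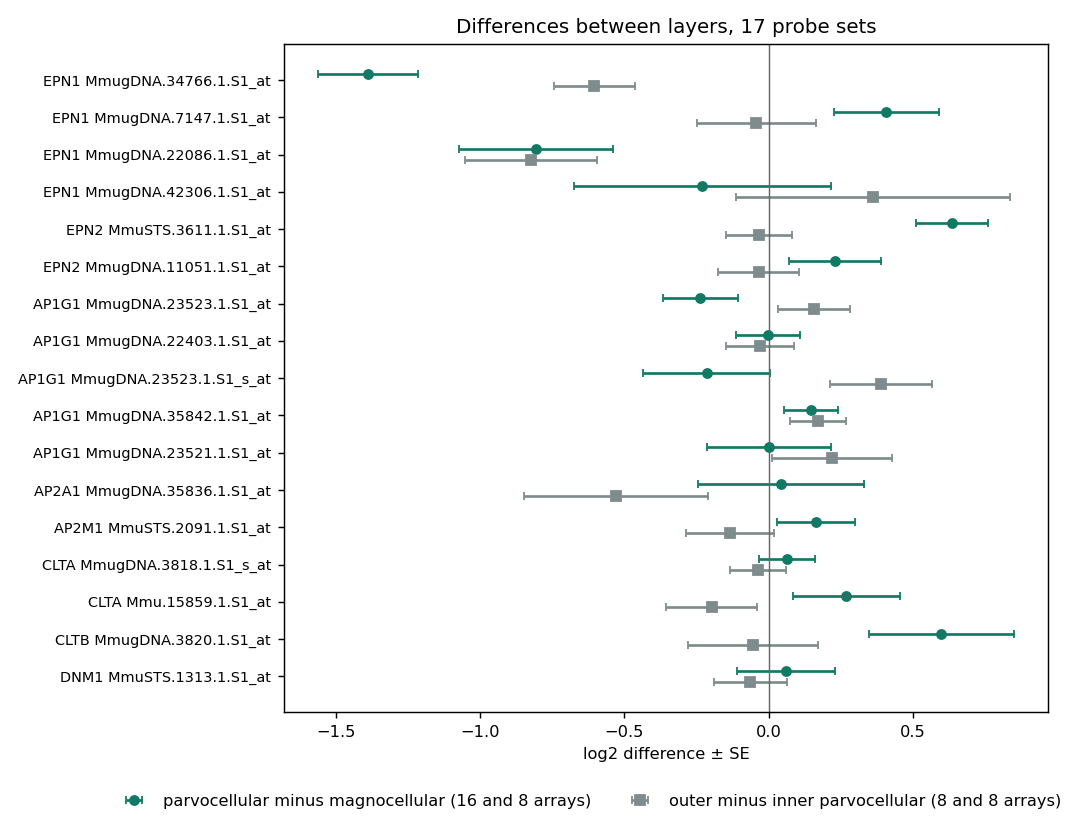
Log2 difference with its SE (horizontal) of 17 member probe sets (rows) between parvocellular and magnocellular layers (green circles, 24 arrays) and between outer and inner parvocellular layers (grey squares, 16 arrays). EPN1 MmugDNA.34766.1.S1_at stands at −1.39 and EPN2 MmuSTS.3611.1.S1_at at 0.64 between classes, and no probe set passed between outer and inner layers.

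AP1G1, the gamma subunit of the AP-1 adaptor, had 5 probe sets. In MmugDNA.22403.1.S1_at the deprived magnocellular signals were 1800 and 1574 in layers 1 and 2 at 2 months and 2320 and 1977 at 4 months. The nondeprived ones were 4046 and 4119 in layers 1 and 2 at 2 months and 3637 and 4086 at 4 months. The groups did not overlap, as was true of 485 probe sets with a lower deprived signal, 1.29% of those tested.

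The means were 1917 ± 315 in deprived and 3972 ± 226 in nondeprived magnocellular layers (SD, n = 4 each), a log2 difference of −1.06 (SE 0.25), lower in 4 of 4 LGNs by −1.36 to −0.82, and −0.96 (SE 0.26) without the array that stood apart. With each array scaled to a common median it was −1.30; the median over all probe sets tested in this contrast was 0.13 with the deposited scaling. These values carry no p because AP1G1 is treated as chosen on them.

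In parvocellular layers the same probe set was 2857, 2108, 2600 and 3132 in deprived layers 3, 4, 5 and 6 at 2 months and 2174, 2398, 1810 and 1994 at 4 months. The nondeprived signals were 2978, 3524, 3992 and 3881 in layers 3, 4, 5 and 6 at 2 months and 2867, 3645, 2273 and 2812 at 4 months. The groups overlapped, and the deprived layer was lower in 8 of 8 pairs by −0.75 to −0.19, with a log2 difference of −0.44 (SE 0.11). The effect was 0.62 (SE 0.22) less negative in parvocellular than in magnocellular layers, as a description.

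The layer classes themselves did not separate in this probe set, with a parvocellular minus magnocellular difference of −0.0029 (SE 0.11, adjusted p = 0.995, limma). Its deprivation effect in parvocellular layers differed by −0.02 between 4 and 2 months (SE 0.24, adjusted p = 0.993).

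The other 4 AP1G1 probe sets did not follow it. The brightest, MmugDNA.23523.1.S1_at, ranged from 8069 to 18028 in deprived and from 8438 to 11788 in nondeprived magnocellular layers, with a log2 difference of 0.23 (SE 0.29). The 18028 came from the array that stood apart. By LGN the difference was 0.71 and −0.55 on the contralateral side at 2 and 4 months and 0.89 and −0.11 on the ipsilateral side. The r of this probe set with MmugDNA.22403.1.S1_at was −0.58. In parvocellular layers it differed by 0.22 (SE 0.13), and MmugDNA.23523.1.S1_s_at, whose r with it was 0.73, by 0.50 (SE 0.19). MmugDNA.35842.1.S1_at was nearly level, from 1240.2 to 2324 over all 24 arrays, and differed by 0.03 (SE 0.10) in parvocellular and −0.28 (SE 0.26) in magnocellular layers. MmugDNA.23521.1.S1_at lay between 84 and 332, with 0.06 (SE 0.21) and 0.05 (SE 0.44).

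**Figure D3:**
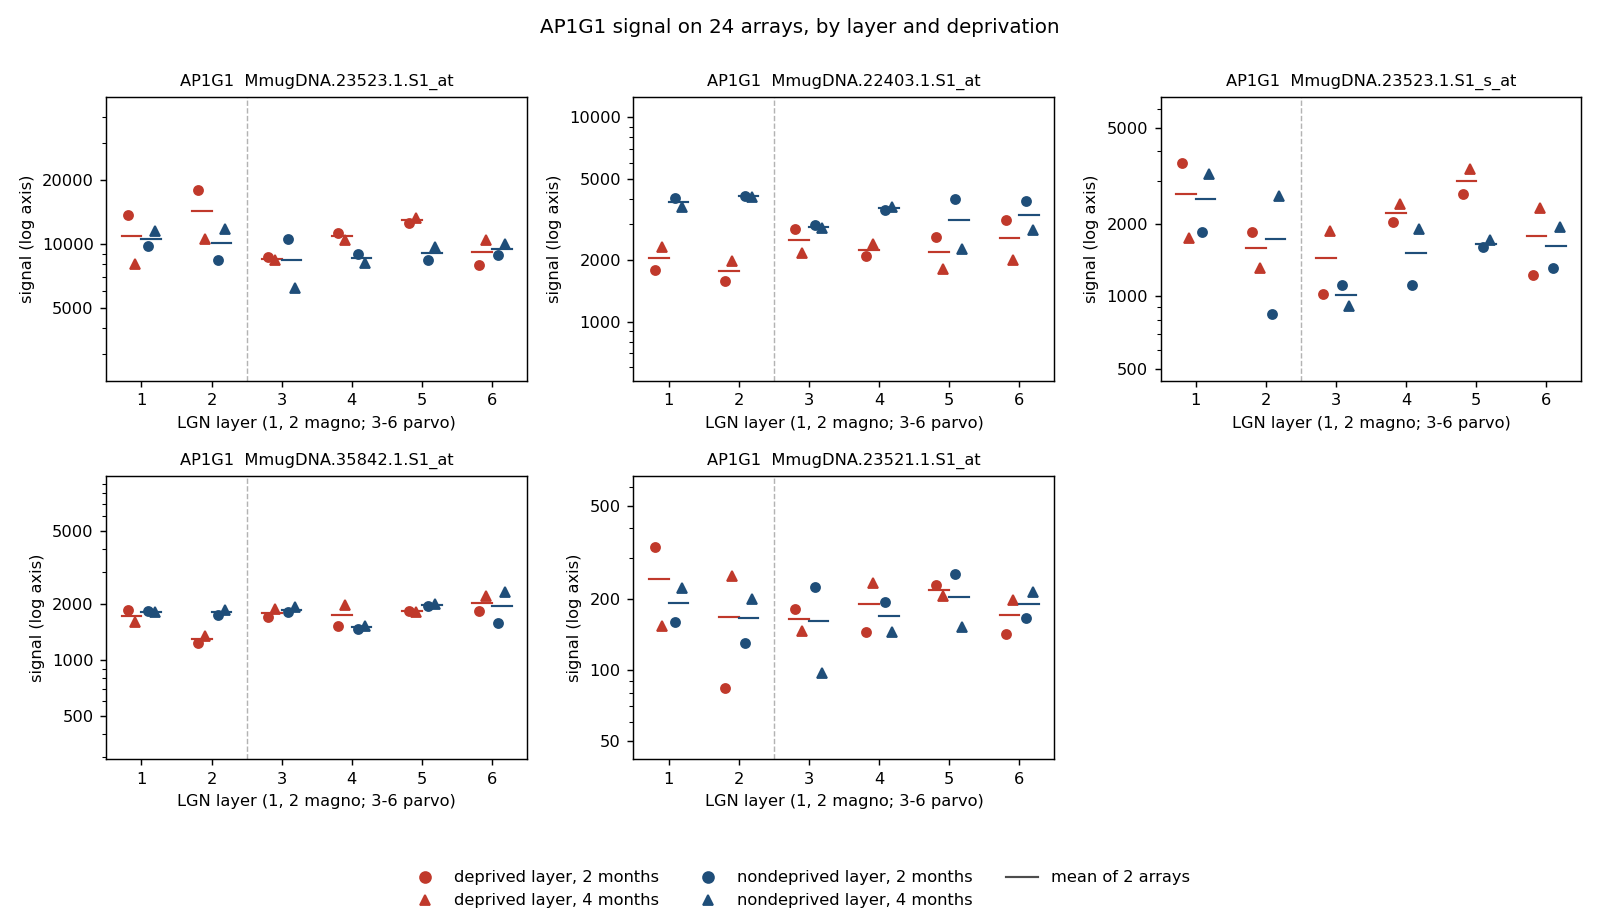
Signal of the 5 AP1G1 probe sets (vertical, log axis, arbitrary units) by LGN layer (horizontal), 1 point per array, red for deprived and blue for nondeprived layers, circles for 2 and triangles for 4 months, with a bar at the mean of 2 arrays. In MmugDNA.22403.1.S1_at deprived magnocellular arrays lie at 1574 to 2320 and nondeprived ones at 3637 to 4119; in the other 4 probe sets the groups overlap in layers 1 and 2.

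The AP-2 subunits were measured by 1 probe set each. AP2M1, the mu subunit that binds tyrosine-based sorting signals, was 4102 and 3127 in deprived layers 1 and 2 at 2 months and 6295 and 3519 at 4 months, against 5164 and 7109 at 2 months and 7283 and 7282 at 4 months in nondeprived layers 1 and 2. It was lower in 4 of 4 LGNs, by a log2 difference of −0.69 (SE 0.25, adjusted p = 0.836, limma), and by −0.68 (SE 0.27, adjusted p = 0.822) without the array that stood apart. In parvocellular layers the difference was −0.27 (SE 0.15), where deprived signals ran from 4204 to 7930 and those of nondeprived layers from 4599 to 10142. AP2A1, the alpha subunit that binds the membrane and accessory proteins, lay near the minimum of 100, from 26 to 191 over all arrays, and its differences of −0.53 (SE 0.34) in parvocellular and −0.30 (SE 0.53) in magnocellular layers were within the spread of the arrays.

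The clathrin light chains, which regulate the assembly of the cage, passed the threshold in none of the comparisons. The brightest CLTA probe set, MmugDNA.3818.1.S1_s_at, ranged from 3143 to 5369 over the 24 arrays and differed by 0.0034 (SE 0.09) between deprived and nondeprived parvocellular layers. In magnocellular layers it differed by −0.34 (SE 0.25, adjusted p = 0.848), and between layer classes by 0.06 (SE 0.10, adjusted p = 0.803, limma). The second CLTA probe set, with an r of 0.80 to it, differed by 0.11 (SE 0.16) and −0.54 (SE 0.36, adjusted p = 0.837). The third CLTA probe set, MmugDNA.34432.1.S1_at, stayed at or under 74 on every array and was not tested.

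CLTB ranged from 125 to 984. Its means were 617 ± 214 in parvocellular (SD, n = 8) and 333 ± 225 in magnocellular layers (SD, n = 4) where nondeprived, and 476 ± 175 and 424 ± 104 where deprived. Its class difference of 0.60 (SE 0.25, adjusted p = 0.219, limma) did not pass, except without the ipsilateral nondeprived layer 1 at 4 months (0.85, adjusted p = 0.0464), while without the ipsilateral nondeprived layer 1 at 2 months it was 0.36 (adjusted p = 0.454). It was 1.08 (adjusted p = 0.197) in nondeprived and 0.12 (adjusted p = 0.879) in deprived arrays alone. Its deprivation effect in parvocellular layers differed by −0.89 between 4 and 2 months (SE 0.40, adjusted p = 0.973, limma), the smallest unadjusted p of the members in that comparison, and by −1.14 to −0.58 when each array was left out.

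DNM1, the dynamin of neurons, was among the brightest members, with medians of 10371 in deprived and 11682 in nondeprived parvocellular layers and a log2 difference of −0.12 (SE 0.12). In magnocellular layers it was 11912 and 12803 in deprived layers 1 and 2 at 2 months and 10597 and 3126 at 4 months, against 12494, 17158, 15182 and 8909 in the nondeprived layers in the same order. The difference of −0.63 (SE 0.38, adjusted p = 0.837, limma) rested on the ipsilateral LGN at 4 months, with its deprived layer 2 at 3126, and was −0.08 without either of its magnocellular arrays.

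**Figure D4:**
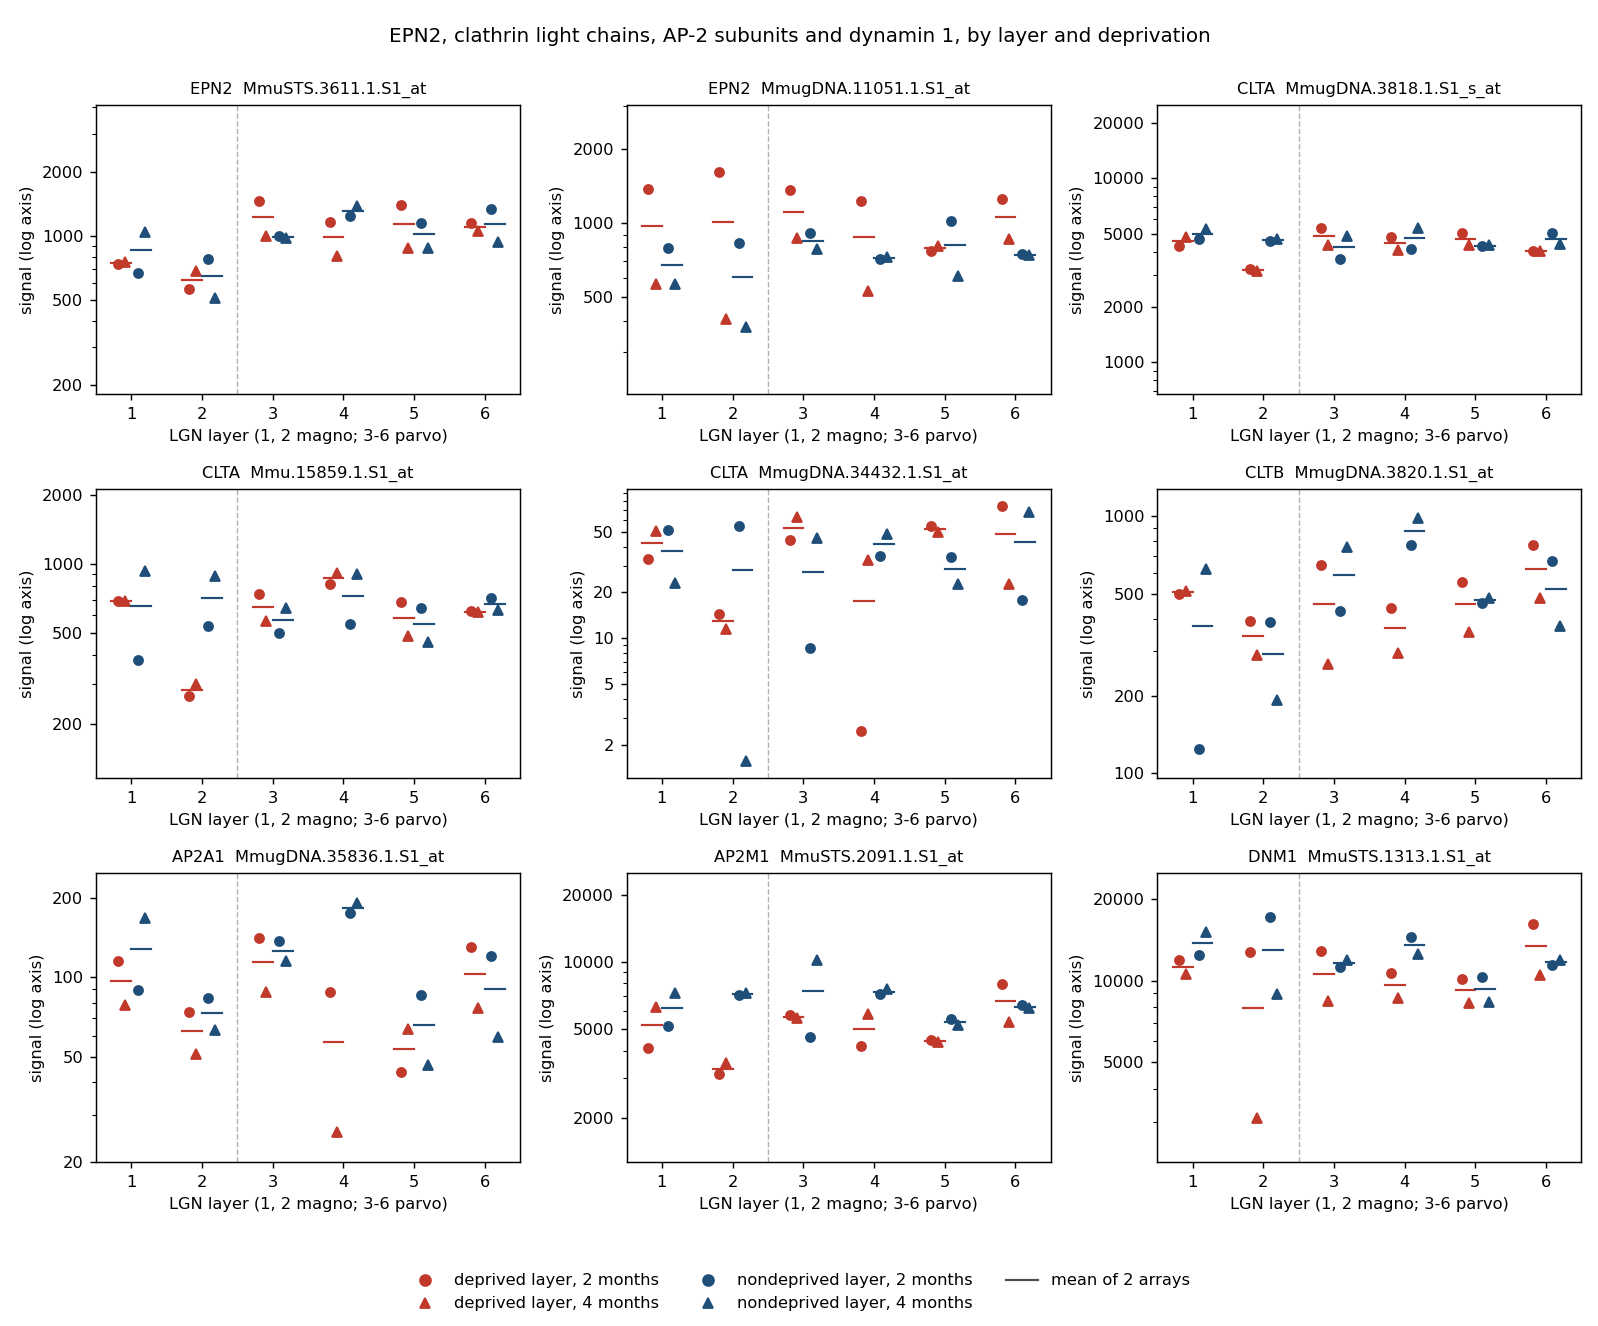
Signal of the EPN2, CLTA, CLTB, AP2A1, AP2M1 and DNM1 probe sets (vertical, log axis, arbitrary units) by LGN layer (horizontal), drawn as for EPN1, with 1 point per array and a bar at the mean of 2 arrays. Deprived and nondeprived arrays overlap in parvocellular layers in every panel, EPN2 MmuSTS.3611.1.S1_at is lower in layers 1 and 2, and the DNM1 point at 3126 lies apart from the other deprived magnocellular arrays.

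**Figure D5:**
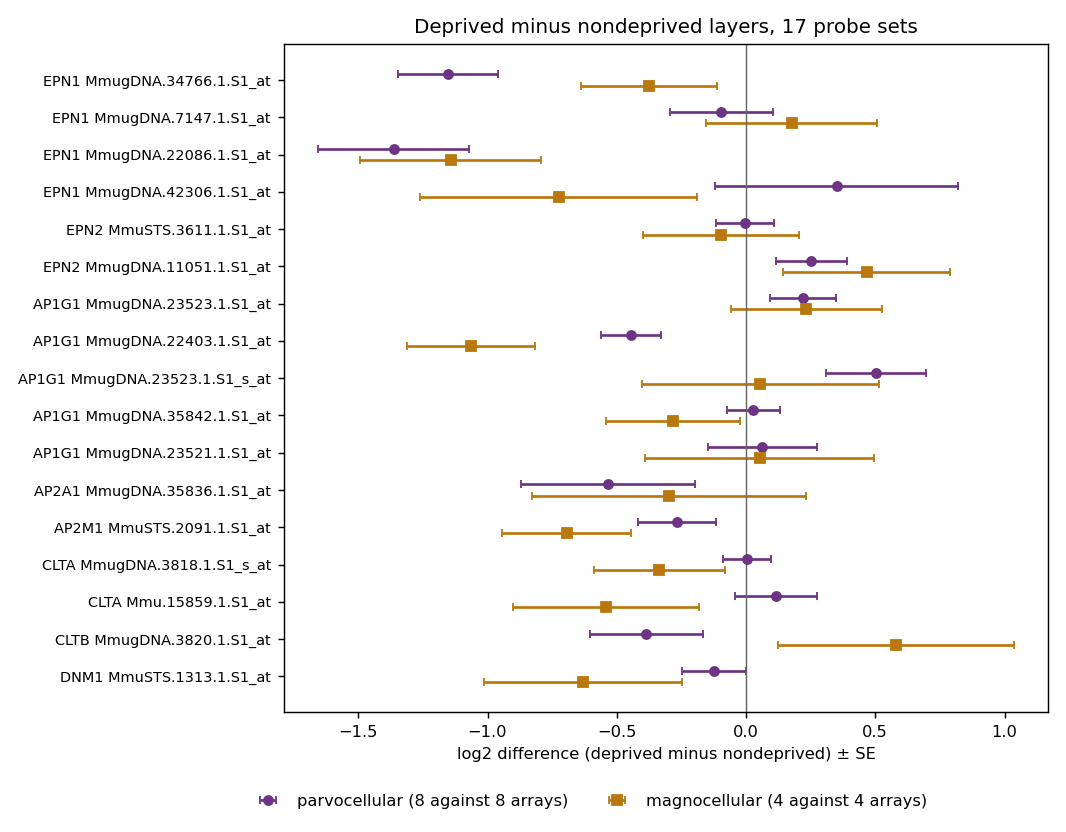
Log2 difference between deprived and nondeprived layers with its SE (horizontal) of 17 member probe sets (rows), purple circles for parvocellular (16 arrays) and orange squares for magnocellular layers (8 arrays). EPN1 MmugDNA.34766.1.S1_at and MmugDNA.22086.1.S1_at stand at −1.15 and −1.36 in parvocellular layers, AP1G1 MmugDNA.22403.1.S1_at at −1.06 in magnocellular layers, and the SEs are wider in magnocellular layers.

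Other genes of the same machinery were taken from a list of 75 genes, of which 56 had a probe set of their own and 55 were tested, each by its brightest probe set. In deprived parvocellular layers, where 0.97% of all probe sets passed, 1 fell and 0 rose: AP1S2, a sigma subunit of AP-1, at −0.47 (SE 0.10, adjusted p = 0.0309, limma). Its signal had medians of 3096 in deprived and 4040 in nondeprived layers and overlapping ranges. It kept its call in 6 of 13 other settings. It lost it with median scaling (adjusted p = 0.187), without a trend (0.135), with the LGN as a random block (0.173), with the GAPDH ratio in the fit (0.0693), with the layer number as a replicate block (0.204) and in each animal alone (0.379 and 0.524), and also with 1 of 7 arrays left out: nondeprived layer 6 on the ipsilateral side at 2 or 4 months, contralateral nondeprived layers 3 or 5 or deprived layer 4 at 2 months, ipsilateral deprived layer 5 or contralateral nondeprived layer 5 at 4 months (adjusted p up to 0.0782). The median of the 55 genes was −0.09, against −0.01 over all probe sets.

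In magnocellular layers none of the 55 passed. AP2S1, the sigma subunit of AP-2, had the smallest p, with −1.00 (SE 0.32, adjusted p = 0.836, limma), followed by PACSIN1, a membrane-bending partner of dynamin in neurons, with −0.72 (SE 0.25, adjusted p = 0.836). The list median was −0.12 against 0.13 over all probe sets. For the difference between durations none passed either, and the smallest p belonged to EPN3, an epsin of epithelia, and HGS, which sorts ubiquitinated cargo on endosomes (both with an adjusted p = 0.973).

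Between layer classes 1 gene of the list was higher in parvocellular layers and 2 were lower, where 3.6% of all probe sets passed. SYNJ2, a lipid phosphatase related to the one that sheds the coat, was 0.57 higher (SE 0.15, adjusted p = 0.0338, limma). HSPA8, the chaperone that takes clathrin cages apart, was −0.41 (SE 0.10, adjusted p = 0.0186), and NUMB, an adaptor known for its part in Notch signalling, −0.39 (SE 0.10, adjusted p = 0.0276). Without the array that stood apart the adjusted p was 0.0921 for SYNJ2, 0.0392 for HSPA8 and 0.0574 for NUMB. All 3 failed once each array's GAPDH ratio entered the fit (adjusted p of 0.197, 0.246 and 0.125). The log2 difference of EPN1 MmugDNA.34766.1.S1_at was −1.33 there, as a description.

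Of 13 other settings, SYNJ2 and HSPA8 kept the call in 6 and NUMB in 7, with an adjusted p up to 0.538, 0.321 and 0.519. Leaving out 1 array lost the call of SYNJ2 in 10 of 24 cases, of NUMB in 4 and of HSPA8 in 1. For HSPA8 it was ipsilateral nondeprived layer 1 at 4 months (adjusted p = 0.0555). For NUMB it was the array that stood apart or 1 of 3 nondeprived magnocellular arrays (layer 1 ipsilateral and layer 2 contralateral at 2 months, layer 2 contralateral at 4 months), with an adjusted p up to 0.0794. For SYNJ2 it was the array that stood apart, the nondeprived layer 1 of either ipsilateral LGN, nondeprived layer 2 contralateral at 2 months, deprived layer 1 contralateral at 4 months, ipsilateral layers 3, 4 or 6 at 2 months, or contralateral layers 4 or 5 at 2 months, with an adjusted p up to 0.0921.

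Of the 55 genes, none passed between outer and inner parvocellular layers or between layers 1 and 2 (limma), where DNM2 and AP2S1 had the smallest p (adjusted p of 0.521 and 1). DNM2, the dynamin of most tissues, was −0.68 in outer against inner layers (SE 0.25).

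Markers of cell types moved as follows beside these results, and their part in them was not tested. The 5 neuronal markers had a median log2 difference of −0.07 with deprivation in parvocellular and −0.11 in magnocellular layers, and of 0.01 between classes. For 8 astrocyte markers the medians were 0.16, 0.30 and −0.25, for 4 oligodendrocyte markers 0.18, 0.18 and 0.21, and for 10 microglial markers 0.28, 0.26 and 0.03. For the GABAergic markers GAD1 and GAD2 they were 0.24, 0.60 and −0.08, and for the 4 endothelial markers tested −0.01, −0.04 and 0.33. Behind these medians, 1 marker of each list but the endothelial one passed the threshold between classes (limma), where 3.6% of all probe sets passed. In parvocellular deprivation, where 0.97% did, 1 astrocyte marker passed. The neuronal class median of 0.01 stood beside a summed neuronal signal that was higher in magnocellular layers. The medians of that sum were 110607 against 85791 where deprived and 109968 against 92246.5 where nondeprived.

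The summed signal of the neuronal markers in parvocellular layers was 78726 to 97405 where deprived and 82052 to 109956 where nondeprived, and in magnocellular ones 88334 to 135631 and 95256 to 128013, so the groups overlapped. In the same order the astrocyte sum was 77588 to 110300 and 72844 to 101732 in parvocellular and 95177 to 137757 and 78160 to 111785 in magnocellular layers. The oligodendrocyte sum was 56699 to 82543 and 55224 to 72065 in parvocellular and 61081 to 106897 and 54549 to 74154 in magnocellular layers. The microglial sum was 5360 to 8438 and 4799 to 7840 in parvocellular and 7419 to 10324 and 7799 to 9029 in magnocellular layers, with CX3CR1 at 100 or more on 3 arrays. The GABAergic sum was 9469 to 16045 and 9296 to 14867 in parvocellular and 18450 to 24464 and 14408 to 16724 in magnocellular layers. The median of this sum was higher in magnocellular layers, 21265 against 14763 where deprived and 16021 against 11354 where nondeprived. The class median of −0.08 over 2 genes does not show this. Neither GABAergic marker passed the threshold with deprivation in magnocellular layers, where no probe set did. The endothelial sum was 1853 to 3229 and 2143 to 3257 in parvocellular and 2083 to 3255 and 1758 to 2381 in magnocellular layers.

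The genes most like EPN1 MmugDNA.34766.1.S1_at over the 24 arrays, by Pearson r of log2 signal after subtraction of each LGN's mean, among 9448 genes by their brightest probe set, were CRHBP (0.92), FGF11 (0.92), LOC708658 (0.91), NQO2 (0.89) and PIP5KL1 (0.89). CRHBP, which binds corticotropin-releasing hormone, had medians of 902 and 468 in nondeprived and deprived magnocellular layers and of 409 and 156 in parvocellular ones. FGF11, a fibroblast growth factor homolog that stays within the cell, had medians of 2792 and 1548 and of 1110 and 326 in the same order. The arrays share 4 LGNs, so these r values are descriptions.

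For AP1G1 MmugDNA.23523.1.S1_at, the brightest, they were BRCC3 (0.86), LRRC61 (0.83), POLG (0.82), CSPG5 (0.81) and MIPEP (0.80). For MmugDNA.22403.1.S1_at, singled out after its values were seen, they were NTNG1 (0.92), TPGS2 (0.92), AMPD3 (0.92), PHF24 (0.91) and LOC695785 (0.89). The lists of the 2 AP1G1 probe sets had no gene in common.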

How the data were processed

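RNA of 24 laser-captured LGN layers was amplified by the authors in 2 rounds, and 1 Rhesus Macaque Genome Array was run per layer. The deposited values are GCOS signals per probe set, linear intensity values that had been brought by the authors to 500.04, the trimmed mean of each array; the processing notes name GCOS. The number of arrays limits the precision. Signals under 1 were set to 1 and log2 was taken. A probe set was tested when its signal was 100 or more on at least 1 array.

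In the platform annotation 24956 probe sets carry 1 symbol, 361 carry several and 27449 carry none. Layers were assigned to groups from the sample labels and the layer scheme of the methods. Linear models with the LGN as a fixed block were fitted over all probe sets in limma 3.58.1 (R 4.3.3), moderated by eBayes with a trend, with Benjamini-Hochberg adjustment at 0.05. Every file column was mapped to a sample.

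The members and the gene lists were chosen with earlier results of these data known. Named genes are all members, the 5 genes most like EPN1 and AP1G1, and the listed genes that passed or had the smallest p. No array was identical to another in 276 pairs. The models were tested on simulated data before use.

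Alternatives were quantile and median scaling, log2 of the signal plus 16, a floor of 50, other filters, no trend, other blocks, the GAPDH ratio as a covariate, each animal alone, and leaving out each array. Same-numbered layers of an animal's 2 LGNs had correlations of their deviations from 0.0185 to 0.254 in parvocellular and from 0.0926 to 0.411 in magnocellular layers, not all above the minimum for pairing, so the numbers were not taken to pair the samples.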

Additional observations from a re-analysis of the deposited data

Results flagged for a closer look

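Of 68 groups of member signals examined, 5 held a value far from the rest of its group, and chance gives about 1 in 20. In nondeprived magnocellular layers, AP1G1 MmugDNA.22403.1.S1_at was 3637 in layer 1 of the ipsilateral LGN at 4 months against 4046 to 4119 in the others. AP2M1 was 5164 in layer 1 of the ipsilateral LGN at 2 months against 7109 to 7283. EPN1 MmugDNA.7147.1.S1_at was 697 in layer 2 of the contralateral LGN at 4 months against 1475 to 1614 in nondeprived magnocellular layers, and 799 in layer 3 of the same LGN against 1596 to 2945 in nondeprived parvocellular layers. DNM1 was 3126 on the ipsilateral side in deprived layer 2 of the 4-month animal against 10597 to 12803 in the other deprived magnocellular layers.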

How the results depend on the processing

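The count of members past the threshold in parvocellular deprivation was 2, both of EPN1, which was chosen on this contrast, so the counts are descriptions. It was 1 with signals under 50 set to 50 or with each array's GAPDH ratio in the fit, 0 without a trend in eBayes or in either animal alone, and 1 to 3 when each array was left out. The cause was not tested, beyond the smaller number of arrays in 1 animal. With a replicate block (the layer number within each animal) in place of the LGN it was 2, and with a replicate block of paired layers within the LGN it was 3, the third being AP1G1 MmugDNA.22403.1.S1_at. The block of layer numbers ended the call of AP1S2 (adjusted p = 0.204). Between layer classes the count of 2 was 1 in the 4-month animal, in nondeprived arrays and in deprived arrays alone, which hold fewer arrays, and 2 to 3 when each array was left out. EPN1 is part of these counts, and its share in them is a description. The counts of 0 in the remaining comparisons were 0 under every alternative run. AP1G1 MmugDNA.22403.1.S1_at in magnocellular layers was −1.30 with median scaling, −1.28 at 2 months and −0.85 at 4 months. EPN1 MmugDNA.22086.1.S1_at was −1.24 between classes with the GAPDH ratio in the fit, as a description. The difference of EPN1 MmugDNA.34766.1.S1_at between classes kept its direction under all 13 other settings, from −1.78 to −1.00. It was −1.49 to −1.32 when each array was left out. Direction was followed through the settings for selected probe sets only, and none of those reversed. AP1G1 MmugDNA.23523.1.S1_at and CLTA MmugDNA.3818.1.S1_s_at were not among them, and their signs differed between the animals. In contralateral and ipsilateral magnocellular layers AP1G1 was 0.71 and 0.89 at 2 months, and −0.55 and −0.11 at 4 months. In parvocellular layers CLTA was 0.16 and 0.19, and −0.18 and −0.16, in the same order. The magnocellular comparison holds 8 arrays and its standard errors were the wider ones.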
